A study of Mus musculus with 3 samples.

Results

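Cluster 17 is a group of stromal cells of the iridocorneal angle and limbus of the mouse eye, led by *Lypd1*, *Wnt6*, *Ogfrl1* and *Ptges*. Its members are the cells that carry the label 17 in the authors' deposited annotation, matched by barcode to the UMI (unique molecular identifier) counts of their library, and they number 2282 of 26008 kept cells. Of the 3 droplet libraries, 2 came from control mice (*Angpt1* flox/flox) and 1 from *Angpt1*ΔNC mice (*Angpt1* flox/flox;*Wnt1*Cre+), so that all animals carried the floxed allele. The *Wnt1*-Cre transgene removes *Angpt1* in cells of neural crest descent and their progeny, not in the cell types that arise elsewhere. Each library pooled limbal tissue of 2 to 3 mice aged 6 weeks and of mixed sex, from a stock outcrossed to albino ICR mice, and *Angpt1*ΔNC is represented by 1 pool. The library is therefore the replicate, nothing separates the animals within a pool, and whatever else set the lone *Angpt1*ΔNC pool apart cannot be told apart from genotype.

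Neural crest mesenchyme supplies most of the stroma of the anterior eye, including the trabecular meshwork (TM), the corneal stroma and endothelium, and the connective tissue of the iris and ciliary body, which belong to the uvea. *Lypd1* encodes a small membrane-anchored protein of the Ly6/uPAR family that binds nicotinic acetylcholine receptors. *Wnt6* encodes a secreted Wnt ligand, and Wnt ligands act on Frizzled receptors of neighboring cells. *Ptges* encodes the inducible synthase of prostaglandin E2, a lipid mediator that acts in the anterior eye on vessels, smooth muscle and aqueous humor outflow.

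The promoters of the genes that name the cluster are shown because transcription factors of the AP-2 and COUP-TF families, *Tfap2b* and *Nr2f1*, were near the top of the genes with the largest fold over other cells. The sequences are from RefSeq (build GRCm38.p6), 250 bases before to 50 after a gene start, 5′ to 3′ on the strand of the gene, and capitals mark a match to the AP-2 motif GCCNNNGGC, searched on both strands. For *Wnt6* the window is chr1:74771642-74771941 on the plus strand, and for *Lypd1*, which has 3 annotated starts, the window of the most upstream start is chr1:125912879-125913178 on the minus strand.
Wnt6: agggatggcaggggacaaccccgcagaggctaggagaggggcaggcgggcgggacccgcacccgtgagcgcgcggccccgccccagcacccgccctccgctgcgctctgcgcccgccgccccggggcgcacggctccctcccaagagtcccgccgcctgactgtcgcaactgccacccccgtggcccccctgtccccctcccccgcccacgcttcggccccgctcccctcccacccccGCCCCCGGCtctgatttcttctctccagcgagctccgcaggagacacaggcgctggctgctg
Lypd1: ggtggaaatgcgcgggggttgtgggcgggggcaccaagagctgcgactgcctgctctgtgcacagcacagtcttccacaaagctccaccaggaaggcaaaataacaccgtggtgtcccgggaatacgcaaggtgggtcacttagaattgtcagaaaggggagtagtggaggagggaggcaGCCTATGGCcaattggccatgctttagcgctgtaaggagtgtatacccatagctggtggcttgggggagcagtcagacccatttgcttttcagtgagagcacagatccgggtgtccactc
The *Wnt6* match begins at position -12 from the start and the *Lypd1* match at position -70, and the windows of the other *Lypd1* starts and of *Ptges* held none. *Ogfrl1* had no entry among the promoters and was not searched. The COUP-TF motif AGGTCA, also searched on both strands, was in none of these windows. Among all 32851 promoters of the same length, 16.6% held the AP-2 motif and 16.3% the COUP-TF motif, so a match is a description of the letters and no evidence of binding.

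Cluster 17 held 466 of the 9076 kept cells of control replicate 1 (5.13%, exact 95% confidence interval 4.69 to 5.61), 924 of 10160 of control replicate 2 (9.09%, 8.54 to 9.67) and 892 of 6772 in *Angpt1*ΔNC (13.2%, 12.4 to 14.0). These shares are given without comparison between genotypes, since genes that define the cluster differed between libraries. The cells had medians of 4673.5, 4969 and 4607 UMIs, in the order control replicate 1, control replicate 2, *Angpt1*ΔNC that is kept throughout, under the 6512, 6617 and 8119.5 UMIs of the other cells. Summed over the cluster, the libraries held 2232672, 4700770 and 4638936 UMIs. Although the pools are labelled as mixed sex, no cell of cluster 17 in either control held a UMI of *Xist*, the RNA of the inactive X chromosome, whereas 617 of the 892 *Angpt1*ΔNC cells held *Xist* without a Y-linked UMI and 167 held Y-linked UMIs alone. Sex and genotype cannot be told apart here, and values from male-typed cells alone stand beside the results. The libraries shared 25, 14 and 13 barcodes among kept cells in the 3 pairs and 0 within cluster 17.

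*Lypd1* was the most specific of the naming genes. Its mean level in cluster 17 was 2.25 and 2.505 UMIs per 10,000 UMIs of the cell in the controls and 0.873 in *Angpt1*ΔNC. The other kept cells stood at 0.029, 0.0236 and 0.051 in the same order, and with 0.1 added to every level the folds over them were 18.2, 21.1 and 6.44. Of all labels, cluster 17 had the highest *Lypd1* level in each of the 3 libraries, although the *Angpt1*ΔNC level was the lowest of the 3.

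*Wnt6* did not separate cluster 17 from its neighbor, cluster 18. In cluster 17 its levels were 1.29 and 1.04 per 10,000 in the controls and 0.922 in *Angpt1*ΔNC. In cluster 18, a group led by *Ptn* and *Enpp2*, they were 1.72, 1.76 and 0.911. Both clusters stood far above TM1 to TM11 together, the stromal groups of the study, at 0.0255, 0.0353 and 0.0563.

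*Ogfrl1* and *Ptges* were likewise shared. The *Ogfrl1* level in cluster 17 was 4.11, 4.38 and 3.31 per 10,000, beside 4.13, 4.795 and 2.79 in cluster 18. *Ptges* stood at 7.34 and 8.51 in the controls and at 13.1 in *Angpt1*ΔNC, beside 5.38, 8.87 and 9.61 in cluster 18. The name of the cluster thus fits its cells, but *Lypd1* alone of these 4 genes was highest there in every library.

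The naming genes were found together in single cells. After thinning every cell to 2000 UMIs, at least 2 of the 4 genes were detected in 47.1% and 48.0% of cluster 17 cells in the controls and in 45.9% in *Angpt1*ΔNC. In cluster 18 the share was 43.2, 47.2 and 37.5%, in TM1 to TM11 3.05, 4.74 and 9.38%, and in the limbal and corneal epithelium, which should lack most of these transcripts, 1.02, 1.59 and 1.77%. Shallower cells were left out, 18, 21 and 9 of cluster 17.

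**Figure D1:**
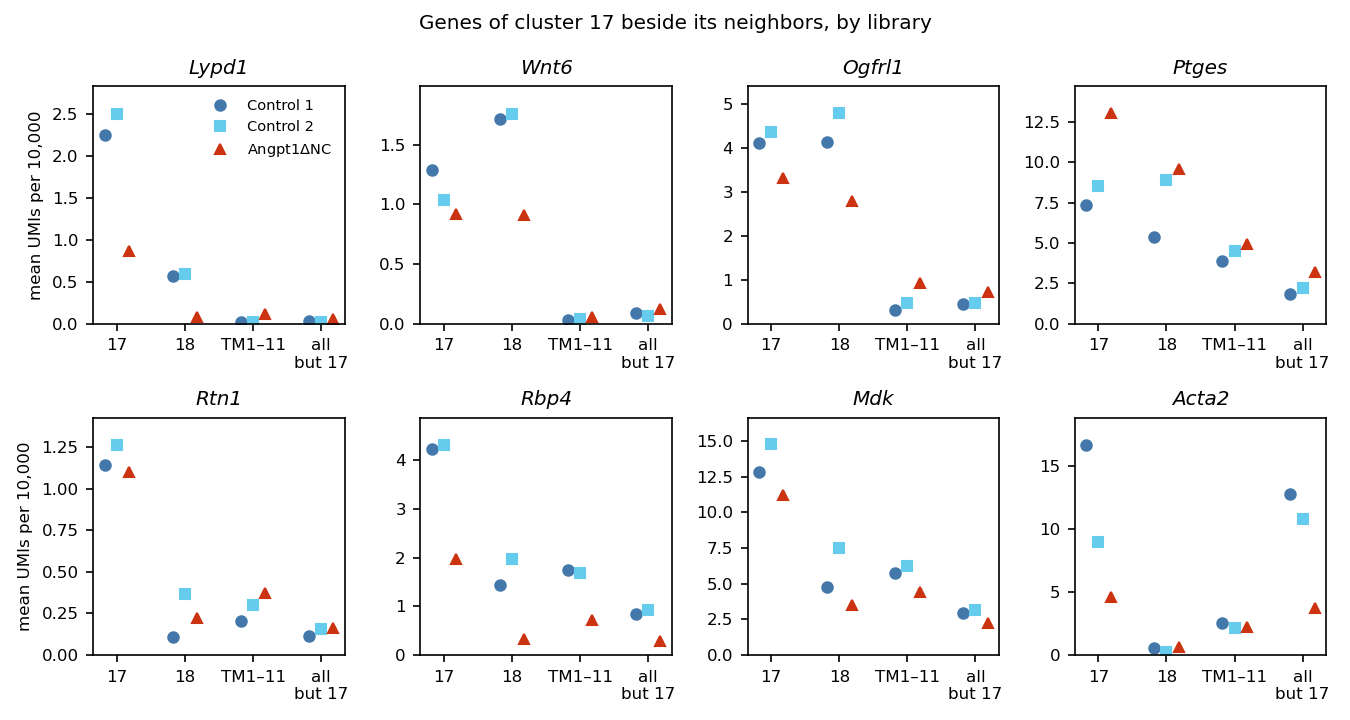
Mean UMIs per 10,000 (vertical axis, from 0) of 8 genes in cluster 17, cluster 18, the TM labels and all cells outside cluster 17, with a point for each library (circles and squares, controls; triangles, *Angpt1*ΔNC). *Lypd1* and *Rtn1* are highest in cluster 17, while *Wnt6*, *Ogfrl1* and *Ptges* are shared with cluster 18, and the 3 libraries give no error bar.

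Beyond the naming genes, the genes with the largest fold over all other cells, taken by the lowest of the 3 libraries among 1973 genes detected in at least 25% of the cells, included transcription factors and genes of cholesterol synthesis. They are a description, since the cells were clustered on such genes. *Rtn1*, which encodes a reticulon of the endoplasmic reticulum known from neurons, stood at 1.14, 1.26 and 1.10 per 10,000, and like *Lypd1* it was highest in cluster 17 in every library. *Mdk*, encoding the heparin-binding growth factor midkine, stood at 12.8, 14.8 and 11.2, against 4.75, 7.48 and 3.53 in cluster 18. *Rbp4*, the plasma carrier of retinol, stood at 4.24, 4.32 and 1.98, with *Angpt1*ΔNC below both controls here and in every comparison group. *Col23a1*, a transmembrane collagen, was at 2.33, 2.19 and 3.15, with similar levels of 2.88, 3.58 and 2.80 in cluster 18.

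*Nr2f1*, the orphan nuclear receptor COUP-TF1, stood at 1.71, 1.81 and 2.40 per 10,000, 3.44 to 3.70 times the other cells, but TM6 and cluster 20 stood higher in every library. *Tfap2b*, which encodes AP-2β, a neural crest factor, lay just outside the 25 genes at 1.45, 1.27 and 0.916, folds of 4.13, 3.23 and 2.73, and cluster 19 had the highest level in every library. The zinc finger genes *Zfp503* and *Glis1* were among the 25, with lowest folds of 2.91 and 2.82.

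Cholesterol synthesis was represented by *Hmgcs1*, which makes hydroxymethylglutaryl-CoA, at 6.18, 4.79 and 3.96 per 10,000, and by *Idi1*, the isomerase of isopentenyl diphosphate, at 3.14, 2.79 and 3.42. The 19 listed genes of cholesterol and fatty acid synthesis summed to 23, 18.8 and 19.1 in cluster 17, against 9.67, 7.24 and 9.04 in the other cells. Cluster 18 reached 17.4, 27.2 and 17.9, so that these transcripts do not set the clusters apart. *Mat2a*, which makes S-adenosylmethionine, stood at 29.6, 34.1 and 39.0 and *Errfi1*, an inhibitor of the EGF receptor, at 29.6, 31.9 and 24.5. Just inside the limit of 25 genes the lowest fold was 2.76 for *Errfi1*, and just outside it was 2.73 for *Tfap2b* and 2.72 for *Serpine2*.

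Checked against markers of other cell types, the cells read as stromal. The fibroblast genes *Col1a1*, *Col1a2*, *Col3a1*, *Dcn*, *Lum* and *Pdgfra* summed to 89.7, 93.1 and 91.7 UMIs per 10,000. All other cells stood at 94.3, 103 and 144, cluster 18 at 247, 198 and 211 and TM1 to TM11 at 224, 246 and 354. *Col23a1* and *Gpc3* were listed here as uveal markers, and *Gpc3*, a cell surface proteoglycan, was at 1.21, 1.41 and 0.679, below the 7.91, 7.91 and 1.33 of the TM labels. The lists for epithelium, melanocytes, endothelium, glia and retinal pigment epithelium summed to between 0.0295 and 1.16 in any library. Leukocyte markers summed to 0.144, 0.0953 and 0.458, with *Cd3e* at 0 in all 3 libraries. Hemoglobin transcripts summed to 0.347, 0.319 and 16.0, and the excess in *Angpt1*ΔNC is taken up with the genotype comparison.

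Contractile genes were also present. The smooth muscle genes *Acta2*, *Myh11*, *Cnn1*, *Des* and *Tagln* summed to 43.5, 23.6 and 16.2 per 10,000, and to 26.1, 24.1 and 9.04 in all other cells. *Acta2*, smooth muscle actin, stood at 16.6, 8.96 and 4.60, and *Tagln*, the actin-binding protein transgelin, at 25.4, 13.9 and 10.8. The defining smooth muscle myosin *Myh11* was low, at 0.638, 0.191 and 0.107, against 1.20, 1.19 and 0.324 in all other cells. *Acta2* and *Tagln* were higher in control replicate 1 than in control replicate 2, so that the controls themselves were spread.

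Cluster 18 and cluster 17 differed in contractile, matrix and growth factor genes. Of 2206 genes detected in at least 25% of the cells of either cluster in every library, 55 were more than 2-fold higher in cluster 17 in each library and 43 were less than 0.5 times as high. *Acta2* in cluster 18 was at 0.523, 0.238 and 0.600 per 10,000. *Fmod*, the collagen-binding proteoglycan fibromodulin, stood at 1.496, 1.80 and 1.42 in cluster 17 against 0.0881, 0.0404 and 0.0422. *Emb*, an adhesion protein of the immunoglobulin superfamily, stood at 4.22, 3.07 and 3.08 against 0.111, 0.0907 and 0.0842, and *Cpe*, a carboxypeptidase of prohormone processing, at 4.02, 4.27 and 2.91 against 0.301, 0.436 and 0.220.

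In the other direction, *Ptn*, the heparin-binding growth factor pleiotrophin and the relative of *Mdk*, stood at 18.5, 6.77 and 27.6 in cluster 17 against 199, 158 and 178 in cluster 18. *Igf1*, insulin-like growth factor 1, was at 1.43, 0.273 and 0.890 against 17, 6.06 and 8.91. *Edn3*, which encodes endothelin 3, was at 1.37, 0.915 and 1.22 against 5.66, 5.93 and 5.83. The pair of heparin-binding factors was thus split between the clusters, *Mdk* toward cluster 17 and *Ptn* toward cluster 18.

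Cluster 17 was also compared with TM1 to TM11. Of 2647 genes, 44 were more than 2-fold higher in cluster 17 in every library and 81 less than 0.5 times as high. *Col1a1*, the main chain of type I collagen, stood at 3.68, 3.55 and 2.92 per 10,000 in cluster 17 and at 35.4, 35.2 and 40.6 in the TM labels. *Chil1*, a chitinase-like TM marker, was at 0.163, 1.15 and 0.199 against 12.9, 16.7 and 6.92. *Csrp1*, an actin-associated LIM protein, was higher in cluster 17, at 15.7, 11.9 and 13.1 against 2.77, 2.86 and 3.62.

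*Angpt1* checks the labels and was left out of the clustering by the study. It is the ligand of the TEK receptor on endothelium, at chr15:42424723-42676977 on the minus strand (GRCm38). At least 1 UMI was found in 102 of 466 control replicate 1 cells (21.9%, 18.2 to 25.9), 166 of 924 control replicate 2 cells (17.97%, 15.5 to 20.6) and 1 of 892 *Angpt1*ΔNC cells (0.112%, 0.00284 to 0.623). The epithelium, which should lack the transcript, gave 0.303% and 0.494% in the controls at median depths of 17717 and 15168 UMIs, and 0 of 911 cells in *Angpt1*ΔNC, which allows up to 0.329%. The control cells of cluster 17 therefore lay above background and the *Angpt1*ΔNC cells did not.

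*Angpt1* also separated cluster 17 from cluster 18, where 2 of 301, 4 of 165 and 0 of 534 cells held a UMI (0.664, 2.42 and 0%, the last allowing up to 0.562%). In TM1 to TM11 the shares were 42.8, 40.6 and 0.668%. Thinned to 2000 UMIs, cluster 17 gave 12.7, 9.08 and 0.113%. These intervals cover counting error only. In summed counts *Angpt1* stood at 54.7 and 51.4 counts per 1000000 (CPM) in the controls and at 0.235 in *Angpt1*ΔNC, 375 UMIs against 1, a ratio of 251 with a counting interval of 44.8 to 9936 (adjusted p = 0.00625, edgeR quasi-likelihood test of 2 control libraries against 1).

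**Figure D2:**
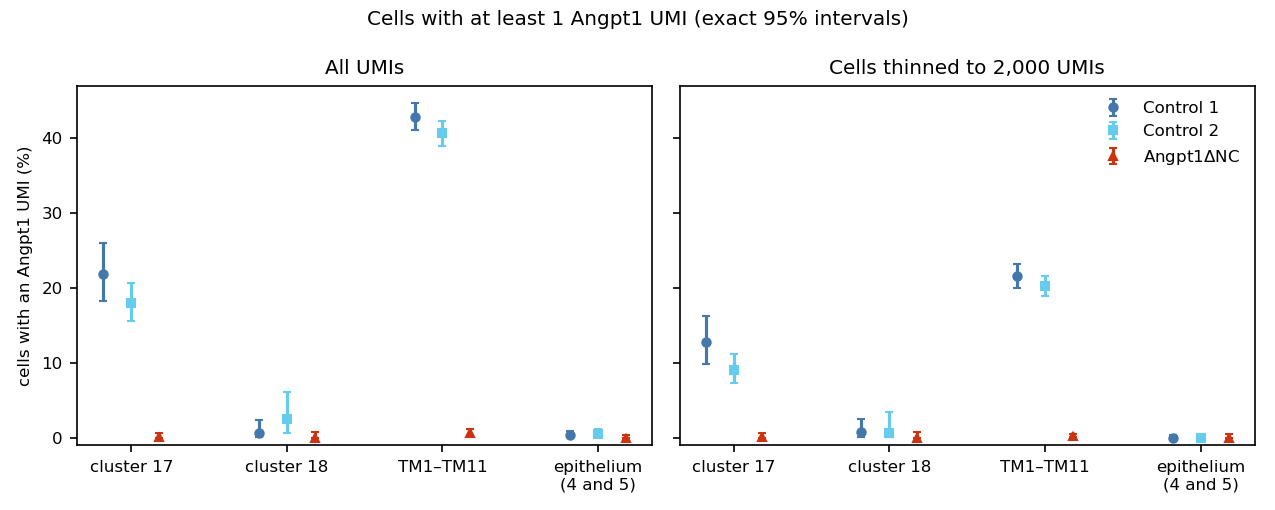
Share of cells with at least 1 *Angpt1* UMI (vertical axis, percent, with exact 95% intervals) in 4 cell groups of each library, with all UMIs on the left and after thinning to 2000 UMIs per cell on the right. Control cells of cluster 17 (21.9 and 17.97%) lie between those of the TM labels and cluster 18, and every *Angpt1*ΔNC group is under 1%.

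Within cluster 17 the cells varied along 2 axes that recurred, with some mixing, in the controls. In each library, principal components were taken from the 1000 most variable of 4249 genes detected in at least 10% of cells. The first axis held 4.47 and 3.62% of the variance in the controls and 4.72% in *Angpt1*ΔNC, and the second 4.27, 3.21 and 2.90%. The contractile axis was first in control replicate 2 and second in control replicate 1 (overlap of the loadings 0.805). In both controls it ran from *Acta2*, *Tagln*, *Myl9*, *Igfbp5* and *Clu* to *Ptn*, *Tnfaip6*, *Medag* and *Ecm1*. Of the controls, only control replicate 2 had *Cxcl12* and *Ccl2* among the leading genes of the *Ptn* end.

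The other axis was first in control replicate 1 and second in control replicate 2 (overlap 0.828). In both it ran from the immediate early genes *Fos*, *Jun*, *Fosb* and *Atf3* to *Mat2a*, *Ptges*, *Ugdh* and *Ccl2*. Immediate early genes are induced within minutes by many stimuli, tissue dissociation among them. *Tm4sf1* and *Tnfrsf11b* were at the *Mat2a* end in control replicate 2, but *Tm4sf1* was at the *Acta2* end of the contractile axis in control replicate 1. The match of the controls was partial. The first axis of control replicate 1 also overlapped the contractile axis of control replicate 2 by 0.392. The second axis of control replicate 1 overlapped the immediate early axis of control replicate 2 by -0.402. In *Angpt1*ΔNC the first axis likewise mixed the contractile and immediate early axes, with overlaps of 0.720 and 0.343. Its other end held the chemokine genes *Ccl2*, *Cxcl1* and *Ccl7* and the cytokine genes *Csf3* and *Il11*. Correlations of these axes with the log UMI count of a cell ranged from -0.47 to 0.52, so that depth moved with them, and its part was not tested.

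*Acta2* and *Ptn* tended to be found in different cells. After thinning to 2000 UMIs, *Acta2* was detected in 58.5, 51.5 and 37.5% of cluster 17 cells and in 2.75, 2.78 and 1.88% of epithelial cells. *Ptn* was detected in 23.3% of the cells with *Acta2* and in 51.6% of those without it in control replicate 1, and the shares were 17.2 and 32.4% in the other control and 27.5 and 53.6% in *Angpt1*ΔNC. The epithelium showed *Ptn* in 12.1, 15.2 and 19.98% of cells, so part of these detections is of the size of background. Cells without *Acta2* thus held *Ptn* more often in each of the 3 libraries.

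Wnt genes were measured as ligands, antagonists and receptors. The 19 listed ligands summed to 5.82, 4.63 and 5.00 UMIs per 10,000 in cluster 17 and to 10.9, 7.45 and 5.67 in cluster 18, against 2.05, 1.65 and 2.04 in the other cells, with 6 of them at 0 in cluster 17. *Wnt11* stood at 2.11, 1.95 and 0.885 and *Wnt4* at 1.12, 0.979 and 2.05, with *Angpt1*ΔNC outside the range of the controls in opposite directions. *Wnt10a* was at 0.726, 0.215 and 0.482, spread over more than 3-fold between the controls. *Sostdc1*, a secreted antagonist of Wnt and BMP signals, was at 1.71, 1.24 and 0.421, and the 15 listed antagonists summed to 4.11, 3.47 and 2.91. Receptors and co-receptors summed to 3.80, 4.21 and 3.60, and the target gene *Axin2*, a feedback inhibitor, was at 0.114, 0.0475 and 0.0445, near the limit of detection.

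Prostaglandin genes covered synthesis and reception. *Ptgs2*, the inducible cyclooxygenase that feeds *Ptges*, stood at 6.66, 10.9 and 11.4 per 10,000. *Ptgis*, the synthase of prostacyclin, stood at 2.76, 3.34 and 2.83, against 0.195, 0.464 and 0.436 in cluster 18. The prostacyclin receptor gene *Ptgir* was at 1.40, 1.41 and 1.96 and the E2 receptor gene *Ptger4* at 0.859, 0.855 and 0.643. *Hpgd*, the enzyme that breaks prostaglandins down, was at 0.207, 0.212 and 0.0783.

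BMP and anterior segment genes were also present. *Id3*, a target of BMP signals, stood at 42.3, 33.9 and 36.5 per 10,000 and *Bambi*, a decoy receptor, at 3.97, 3.55 and 5.46. *Foxc1*, a transcription factor whose loss causes anterior segment dysgenesis, was at 1.99, 2.09 and 2.14. Nicotinic receptor subunits, the partners of LYPD1, were close to absent, with a sum over 16 genes of 0.0342, 0.0239 and 0.0281 and 8 genes at 0.

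The comparison of genotypes asks how cluster 17 differed without neural crest *Angpt1*. Of 11444 genes tested on counts summed per library (edgeR quasi-likelihood test, 2 libraries against 1, 1 residual degree of freedom, Benjamini-Hochberg adjusted p under 0.05), 33 (0.288%) passed, 20 (0.175%) higher and 13 (0.114%) lower in *Angpt1*ΔNC. The spread is taken from the 2 controls alone. The count was unstable, with 2338 genes at an unadjusted p under 0.05, 15 calls with another size factor (RLE), 190 from DESeq2 and 443 among male-typed cells. Without 39 cells that held 5 or more hemoglobin UMIs or 2 or more UMIs of a leukocyte gene (6, 10 and 23 cells), an alternative chosen after the data were seen, 678 of 11397 genes (5.95%) passed, 339 (2.97%) in each direction. All 33 kept their direction in every alternative that tested them.

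Among secreted signals *Nog* fell, the gene of noggin, which binds BMP ligands outside the cell and blocks them. *Nog* stood at 174 and 163 CPM in the controls and at 39.2 in *Angpt1*ΔNC, with the controls close together and *Angpt1*ΔNC far below. Its log2 change was -2.10 (SE 0.17, adjusted p = 0.0217, edgeR), and in male-typed cells it was -1.91. The call was lost with RLE size factors (adjusted p = 0.0713) and without the filter on low counts (adjusted p = 0.111). Of the 31 tested BMP and TGF-beta genes it was the only call, with 9 at an unadjusted p under 0.05 and 3 called by DESeq2. Over all 11444 genes these counts were 2338 and 190. Without the 39 cells *Bmp4*, *Gdf10*, *Nog*, *Bambi*, *Fst* and *Ltbp1* passed, 2 higher and 4 lower. Among all genes 5.95% passed in that fit, 2.97% in each direction. *Bmp4*, a BMP ligand, rose by 2.33 (adjusted p = 0.00605) and *Fst*, the activin antagonist follistatin, fell by 0.92 (adjusted p = 0.0369).

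The interferon-induced genes *Ifit3* and *Gbp2b* rose. *Ifit3*, an interferon-induced antiviral gene, stood at 60.2 and 57.9 CPM in the controls and at 386 in *Angpt1*ΔNC (log2 change 2.71, SE 0.15, adjusted p = 0.00625). It was the only call among 24 tested interferon genes, of which 13 had an unadjusted p under 0.05, 12 of them higher, and whose median log2 change was 0.60 beside -0.01 over all genes. An unadjusted p under 0.05 was found in 2338 of all 11444 genes. *Gbp2b*, an interferon-induced GTPase, went from 4.21 and 6.08 to 155 CPM (log2 change 4.84). *Ifit3* and *Gbp2b* kept their calls in male-typed cells.

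Several of the genes called lay close together on a chromosome, and the cause of this was not tested. *Pcp4l1*, a small gene related to a calmodulin-binding protein, went from 77.8 and 78.2 to 343 CPM. *Adamts4*, a protease of proteoglycans, went from 64.0 and 54.5 to 276 CPM. Both lay within chr1:171173262-171260637 among 5 tested genes. *H2-Q6*, *H2-Q7* and the antisense gene *BC023719*, all lower, lay within chr17:35424850-36117121 among 26 tested genes. *H2-Q6*, an MHC class I gene, went from 67.7 and 73.0 to 1.88 CPM. Reads of near-identical or overlapping genes can be split by the counting, which makes single values of *H2-Q6*, *H2-Q7*, *Il11ra1*, *Gm13305*, *C1s2* and *Adamts4* uncertain.

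*C1s2*, a copy of the complement protease gene C1s, had 340 UMIs in the controls and 0 in *Angpt1*ΔNC, at least 75.8-fold lower against 3 counts over the group. It was among 2 calls within chr6:124570294-125003096, where 18 genes were tested. *Slc15a2*, a peptide transporter, had 3 UMIs in the controls and 310 in 243 cells of *Angpt1*ΔNC, a ratio of 154 with a counting interval of 52.4 to 753. *Il11ra1*, the receptor of interleukin 11, went from 42.1 and 36.1 to 269 CPM, while *Gm13305*, a predicted gene, went from 344 and 362 to 62.6. They lay within chr4:41699989-42168603 among 8 tested genes. *Gm10260*, another predicted gene, went from 217 and 345 to 1.88 CPM, and was among 2 calls within chr13:97760072-98492001, where 6 genes were tested.

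Other calls were of hemoglobin genes, rested on few cells or rested on sex. Hemoglobin transcripts were in few cells of *Angpt1*ΔNC: the 9178 UMIs of *Hbb-bs* lay in 126 cells, 4130 of them in 1 cell. *Cx3cr1*, a chemokine receptor of macrophages, had 95 UMIs in 7 cells, and *Mmp3*, a matrix metalloproteinase, 272 UMIs in 22 cells. *Lyz2*, the lysozyme gene of myeloid cells, had 117 UMIs in 31 cells. The 39 cells were picked by hemoglobin and leukocyte genes, so that the values of these genes without them are no test. In male-typed cells *Mmp3* (log2 change 0.43) and *Lyz2* did not pass. *Xist* had 0 UMIs in the controls and 5426 in *Angpt1*ΔNC.

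**Figure D3:**
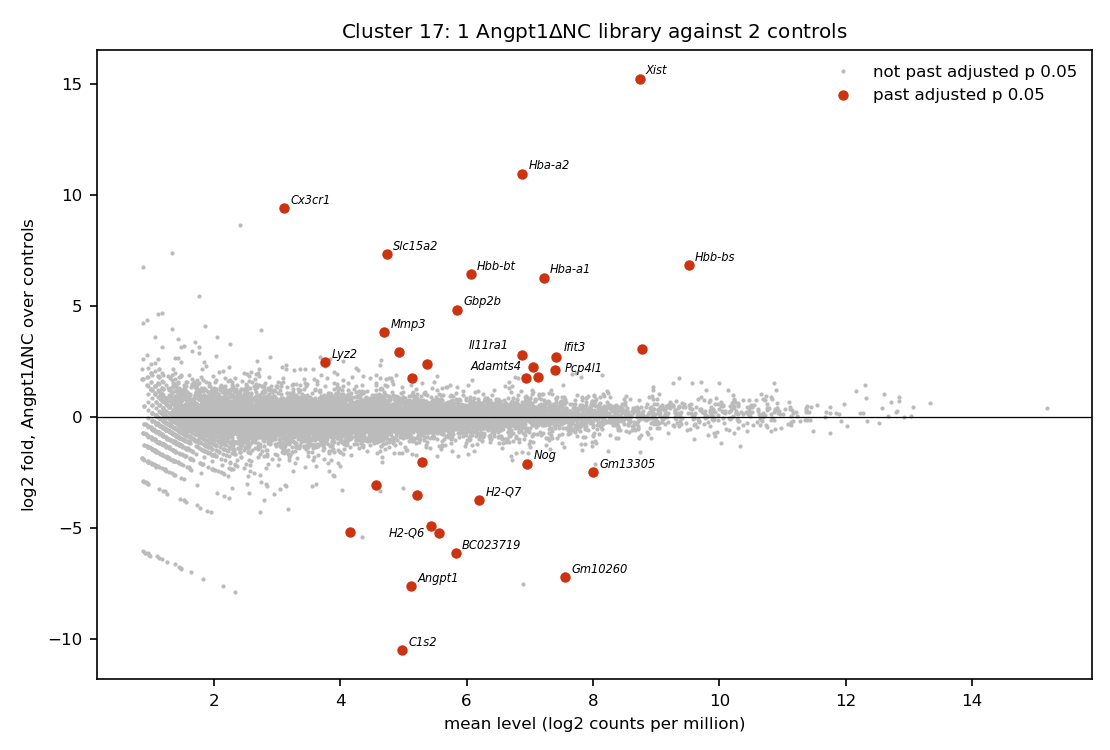
Log2 fold of *Angpt1*ΔNC over the 2 controls (vertical axis) against mean level (horizontal axis, log2 CPM) for the 11444 genes tested in summed cluster 17 counts. The 33 genes past an adjusted p of 0.05 are red, those described in the text are labelled, and the fold of genes without UMIs in a group depends on the added prior count and is no bound.

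Genes that define the cluster are given by value only, since a cluster picks its cells by them. *Lypd1* had a log2 change of -1.34 and *Acta2* of -1.18. Without the 39 cells they were -1.33 and -1.17. None of the 8 tested Wnt ligands passed the edgeR test, with 4 at an unadjusted p under 0.05 and 2 called by DESeq2. Among all 11444 genes the counts were 2338 and 190. Without the 39 cells *Wnt4*, *Wnt5a* and *Wnt11* passed, 2 higher and 1 lower, beside 5.95% of all genes. *Wnt4* rose by 1.16 (adjusted p = 0.00451) and *Wnt11* fell by 0.95 (adjusted p = 0.0146). The *Wnt4* change was 0.32 in male-typed cells (adjusted p = 0.49).

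For antagonist, prostaglandin, contractile and chemokine genes the calls differed between the fits with and without the 39 cells. Calls over all genes rose from 33 to 678 between these fits, and the cause was not tested. With all cells, 2338 of 11444 genes had an unadjusted p under 0.05 and DESeq2 called 190. *Sostdc1* had a log2 change of -1.62 (adjusted p = 0.0771), -1.61 without the 39 cells (adjusted p = 0.00405) and -2.11 in male-typed cells. None of the 13 tested genes of prostaglandin synthesis and breakdown passed, with 4 at an unadjusted p under 0.05 and 1 called by DESeq2. Without the 39 cells *Hpgd* passed (log2 change -1.29, adjusted p = 0.0314), beside 5.95% of all genes. So did *Ptges* (log2 change 0.86), but it names the cluster, so that its call is no test. None of the 16 contractile genes passed, with 9 at an unadjusted p under 0.05, 6 of them lower, 1 called by DESeq2, and a median log2 change of -0.68, and the part of the smooth muscle markers, at 43.5, 23.6 and 16.2 per 10,000, was not tested. Without the 39 cells 5 of them passed, 2 higher and 3 lower, beside 5.95% of all genes, 2.97% in each direction. Chemokines were at 0 of 17 past the test, with 10 at an unadjusted p under 0.05, 9 of them higher, and 4 called by DESeq2, and without the 39 cells 8 passed, 7 of them higher, beside 5.95% of all genes. The expression of *H2afv*, the gene at which the Cre transgene is inserted, was 219 and 226 CPM in the controls and 99.4 in *Angpt1*ΔNC (adjusted p = 0.0757).

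Whether the genotype difference was particular to cluster 17 was tested against cluster 18 in the same libraries. Of 11062 genes, 149 (1.35%) had a genotype difference that differed between the clusters, 101 (0.913%) toward higher and 48 (0.434%) toward lower values in cluster 17 (edgeR interaction with library as a block, adjusted p under 0.05). The direction is that of the difference between the log2 changes, which a change in either cluster can set. In male-typed cells 28 passed, 21 of them among the 149. Since the labels were set on expression, membership and level are not independent, and the genes named here were chosen after their values were seen.

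Of 30 tested BMP and TGF-beta genes 5 passed, beside 1.35% of all genes. *Nog*, *Bmp2* and *Ltbp1* were toward lower values in cluster 17 (0.434% of all genes) and *Bmp4* and *Bambi* toward higher values (0.913%). *Nog* fell in cluster 17, while in cluster 18 it was at 15.7, 9.44 and 9.32 CPM, a difference of -1.62 between the log2 changes (SE 0.42, adjusted p = 0.0352). *Bmp2*, a BMP ligand, stood at 81.8, 63.9 and 53.6 CPM in cluster 17 and at 37.8, 20.2 and 108 in cluster 18, a difference of -2.31 (adjusted p = 1.45e-05). *Sostdc1* stood at 153, 117 and 43.0 in cluster 17 and at 28.9, 22.9 and 24.6 in cluster 18 (difference -1.57, adjusted p = 0.00542). The latent TGF-beta binder *Ltbp1* behaved alike, at 187, 173 and 73.2 against 28.3, 62.0 and 53.1 (difference -1.66). Of these, *Bmp2* kept its call in male-typed cells, with a difference of -2.24, and against TM1 to TM11 it alone did not pass (difference -0.37, adjusted p = 0.284).

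Of 9 tested Wnt ligands 2 passed, both with a genotype difference toward higher values in cluster 17 than in cluster 18, beside 0.913% of all genes. *Wnt4* was at 91.4, 85.4 and 190 CPM in cluster 17 and at 148, 68.8 and 104 in cluster 18 (difference 1.14, adjusted p = 0.0381). *Wnt10a* was at 62.0, 19.7 and 56.0 against 331, 197 and 182 (difference 1.12, adjusted p = 0.0394). Its *Angpt1*ΔNC level thus lay between the controls in cluster 17 and below both in cluster 18. In male-typed cells the differences were 0.32 and 0.40 and neither passed, and against TM1 to TM11 *Wnt10a* had a difference of -1.40 (adjusted p = 0.0803).

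Toward higher values in cluster 17, where 0.913% of all genes passed, were 7 of 24 tested interferon genes, 3 of 16 retinoic acid genes and 1 of 8 cadherin and gap junction genes. *Ifit1*, an interferon-induced antiviral gene, was at 336, 311 and 732 CPM against 242, 417 and 193 (difference 1.90, adjusted p = 4.33e-05). *Aldh1a2*, which makes retinoic acid, was at 24.6, 21.4 and 41.5 against 140, 132 and 66.7 (difference 1.88, adjusted p = 0.000157). *Gja4*, the gap junction protein connexin 37, was at 149, 241 and 401 against 559, 680 and 295 (difference 2.14, adjusted p = 1.28e-06). For *Aldh1a2* and *Gja4* the *Angpt1*ΔNC level lay above both controls in cluster 17 and below both in cluster 18. *Aldh1a2* and *Gja4* kept their calls in male-typed cells, with differences of 2.58 and 2.80. Against TM1 to TM11 in place of cluster 18, *Aldh1a2* differed by 0.76 (adjusted p = 0.0115) but *Gja4* by -0.56 (adjusted p = 0.00696), so that the direction of *Gja4* holds against cluster 18 alone.

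*Adamts4*, which rose in cluster 17, stood at 162, 247 and 225 CPM in cluster 18 (difference 2.04, adjusted p = 1.45e-05). *Pcp4l1* stood there at 32.7, 51.3 and 36.2 CPM (difference 2.27, adjusted p = 1.45e-05), and both kept their call in male-typed cells.

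**Figure D4:**
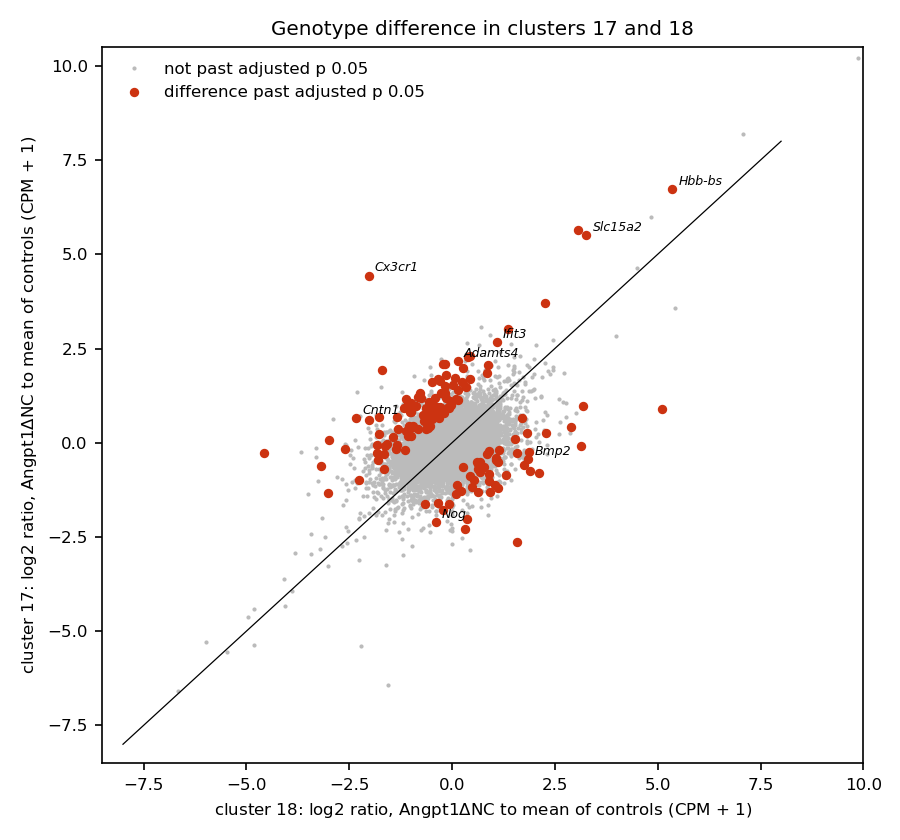
Log2 ratio of *Angpt1*ΔNC to the mean of the controls in cluster 18 (horizontal axis) and in cluster 17 (vertical axis), with 1 CPM added, for the 11062 genes tested, and the diagonal of equal ratios. The 149 genes whose difference passed the interaction test are red, those above the line toward cluster 17 (*Adamts4*) and those below it toward cluster 18 (*Bmp2*).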

How the data were processed

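Single cells of the limbus were measured in 3 droplet libraries. The authors made gene by cell UMI counts with Cell Ranger (version 2.1.1 in the submitters' processing notes) on mm10 and deposited them unnormalized. The authors kept cells with at least 200 genes, at least 1000 UMIs and at most 10% mitochondrial UMIs, removed doublets with scDblFinder, integrated the libraries with Seurat 3.1.3 and clustered them without *Angpt1* and sex-linked genes. The deposited tables of integrated natural log values served only for their cluster labels.

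A level is the mean, over the cells, of UMIs per 10,000, computed with Python 3.11.15 and scipy 1.17.1 (exact Clopper-Pearson intervals). Differences between genotypes were tested on counts summed per library with edgeR 4.0.16 (TMM factors, filterByExpr, quasi-likelihood F-test, Benjamini-Hochberg adjustment, SE as the change over the root of F) and, as an alternative, with DESeq2 1.42.0. On simulated counts for the genotype test with 11444 genes, 48 of 50 genes raised 4-fold and 21 of 50 raised 2-fold were called. Of those lowered to 0.25 and to 0.5, 32 of 50 and 17 of 50 were called, with 3 false calls in all. The interaction test on 11062 genes called 117 of 200 genes changed 4-fold, with 5 false calls. The simulation gave every gene the same spread and equal means in the unchanged libraries, unlike the data, so these rates need not hold there. Genes named are the 25 leading genes by lowest fold, the 15 with the smallest adjusted p in each direction, ends of the first axis, ratios to clusters 18 and TM1 to TM11, and list members high in the cluster or called. Others were named after their values were seen. The members and lists were chosen with earlier results of these data known. Positions come from the GRCm38 annotation, which held 31011 of the 31053 gene identifiers. Results of some genes that this rule names are not reported here.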

Additional observations from a re-analysis of the deposited data

Results flagged for a closer look

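In 17 named genes the difference between *Angpt1*ΔNC and the controls was not the same in cluster 17 as in cluster 18, by the edgeR interaction test (adjusted p under 0.05). The values are log2 changes in cluster 17 minus those in cluster 18, so that a change in either cluster can set them. Toward higher values in cluster 17, the interferon genes *Ifit3* and *Ifit1* differed by 1.59 and 1.90. *Pcp4l1* and *Adamts4* on chromosome 1 differed by 2.27 and 2.04. *Aldh1a2* differed by 1.88 and *Gja4* by 2.14. *Cntn1*, an adhesion protein gene of neural cells, differed by 3.02, at 42.1, 38.9 and 64.1 CPM in cluster 17 against 51.0, 90.4 and 13.3 in cluster 18. *Slc15a2* differed by 3.44, *Wnt4* by 1.14 and *Wnt10a* by 1.12.

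*Hbb-bs* and *Hbb-bt* differed by 1.34 and 2.78. *Cx3cr1* differed by 11.74, a fitted value that depends on the prior count because both controls held 0 UMIs in cluster 17.

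Toward lower values in cluster 17, *Nog* differed by -1.62, *Sostdc1* by -1.57, *Ltbp1* by -1.66 and *Bmp2* by -2.31. The cause of these differences was not tested.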

How the results depend on the processing

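The count of genes called between genotypes depended on nearly every choice. It was 33 as reported, 15 with RLE size factors, 13 without a filter on low counts, 190 with DESeq2, 443 in male-typed cells, 678 without the 39 cells that held at least 5 hemoglobin or 2 leukocyte UMIs (chosen after the data were seen), 872 after thinning and 1001 with equal numbers of cells. The cause was not tested. Against TM1 to TM11 in place of cluster 18 the interaction gave 873 genes, and in male-typed cells 28.

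The *Angpt1* share of control replicates 1 and 2 was 12.7 and 9.08% after thinning and 4.51 and 5.30% at 2 or more UMIs, where *Angpt1*ΔNC gave 0. Cluster 17 made up 12.5, 20.2 and 26.0% of stromal cells and 7.85, 12.7 and 18.9% of cells outside clusters 1 to 5 and 7 to 9, and cells with 2 naming genes made up 7.08% of control replicate 2. With 1 added in place of 0.1 the lowest fold was 1.72 for *Wnt6* and 2.95 for *Ptges*, and with equal weights of the other labels 6.24 and 4.68. Leaving out each library in turn, the lowest fold ranged from 6.44 to 18.2 for *Lypd1*, 4.66 to 7.04 for *Wnt6*, 4.12 to 7.58 for *Ogfrl1* and 3.75 to 3.86 for *Ptges*, and *Angpt1*ΔNC set the lowest value of the first 3. The first axis held a mean of 5.75% of the variance with 500 genes, 3.32% with 2000 and 2.74% after thinning. No paired analysis was possible because the groups share fewer than 2 replicate numbers.

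With 1 *Angpt1*ΔNC library, p-values measure the spread between 2 pools, and a change particular to that pool cannot be told apart from genotype. At medians of 4607 to 4969 UMIs, transcripts near 0.1 per 10,000 rest on few cells.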

Other observations

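Stress and steroid response genes were also measured in cluster 17. The 18 listed glucocorticoid response genes summed to 105 UMIs per 10,000 in each control and to 158 in *Angpt1*ΔNC. The main contributor, *Mt1*, a metal-binding metallothionein, stood at 32.1, 31.9 and 79.4 (log2 change 1.45, adjusted p = 0.0712, edgeR). None of the 17 tested genes passed the edgeR test, with 7 at an unadjusted p under 0.05, 6 of them higher, and 4 called by DESeq2. For all 11444 genes the unadjusted count was 2338 and the DESeq2 count 190. The 13 heat shock genes summed to 152, 141 and 108 and the 22 immediate early genes to 154, 122 and 99.1, so that both were lowest in *Angpt1*ΔNC, as were their sums in the other cells, at 90.0, 83.5 and 70.7 and at 120, 106 and 87.1.

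Growth factor and matrix sums of cluster 17 were near those of all other cells. The 43 listed growth factors, receptors and binding proteins summed to 126, 114 and 131 per 10,000, against 324, 286 and 291 in cluster 18 and 127, 121 and 117 in all other cells. The 41 proteoglycans and matricellular proteins summed to 167, 171 and 145, against 328, 353 and 453 in TM1 to TM11 and 155, 168 and 192 in all other cells. None of the 36 of these that were tested passed the edgeR test, with 13 at an unadjusted p under 0.05, 12 of them lower, and 6 called by DESeq2. The corresponding counts over all 11444 genes were 2338 and 190.

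*Msc*, a basic helix-loop-helix transcription factor, had 0 CPM in both controls and 13.1 in *Angpt1*ΔNC without passing the test (adjusted p = 0.0709, edgeR). *Saa3*, an acute phase protein gene, stood at 1.26 and 342 CPM in the controls and at 0.938 in *Angpt1*ΔNC, a difference between the control pools and not between genotypes. These genes were picked after their values were seen.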
